A study of Mus musculus with 21 samples.

Results

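The choroid plexus epithelium genes described here are 6 genes that mark the secretory epithelium of the brain's ventricles, namely Ttr, Enpp2, Folr1, Kl, Clic6 and Kcne2. They were taken by symbol from per-library tables of gene expression, in which each of the 6 was found among 24322 gene symbols. The choroid plexus is a folded sheet of epithelium over a core of vessels and stroma that hangs into the ventricles, secretes cerebrospinal fluid and grows from the dorsal midline of the forebrain and hindbrain. Its cells load the fluid with carrier proteins, hormones and vitamins, and carry ion channels and transporters on their ventricular face. In the lateral ventricles it lies beside the wall that holds neural stem and progenitor cells.

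The libraries were mRNA profiles of neural stem/progenitor cells, sorted by GFP fluorescence from C57BL/6 mice that all carried a Nestin-EGFP transgene. VPA mice came from dams given valproic acid, a histone deacetylase inhibitor and antiepileptic drug, by mouth at 300 mg/kg/day on embryonic days 12, 13 and 14, and Control mice from dams given methylcellulose on the same days. The 7 groups were VPA and Control forebrain at embryonic day 15 (E15), VPA and Control dentate gyrus at postnatal day 5 (P5), and VPA with voluntary running (VPA Run), VPA and Control dentate gyrus at 12 weeks (12w). Each group held 3 libraries, no group ran without VPA, and the Nestin promoter is also active outside neural stem cells, for example in vessel-associated cells.
The labels do not say whether the 3 replicates of a group came from separate litters or animals, so the p-values measure the spread between these libraries, which may be technical. Levels are FPKM (fragments scaled to transcript length and library size), so they are corrected for length, and the number of reads behind them is unknown. Summed over all genes, FPKM came to between 465610 and 506183 in the E15 libraries, between 475775 and 492041 in the P5 ones and between 482753 and 574594 in the adult ones. Whether the authors normalized the 3 ages together is not given in the sources used here, and E15 differs from the later ages in tissue as well as age. VPA Run rep3 and rep2 had the fewest genes above 0, at 12019 and 13254, against 13502 to 15210 in the other adult libraries. Several of the 6 genes were listed at 0 in 12w libraries. In bulk samples of this kind, fewer cells of a type and less RNA per cell cannot be told apart.

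At E15 a single library stood apart for all 6 genes. VPA rep3 held Ttr and Enpp2 at 9662 and 1296 FPKM and the other 4 genes at 35.4 to 81.8 FPKM, and each was 50.3 to 89.3 times its level in the next highest of the 6 E15 libraries. That next highest library was Control rep3 for each of the 6 genes. Control rep3 carried the other treatment label and the same replicate number as VPA rep3, and the part of either was not tested. For these 6 genes the other 2 VPA libraries and the other 2 Control libraries stood below both. Among 31 further choroid plexus genes with a marked excess in VPA rep3, Control rep3 was second in 14 and another library was second in the rest. The share over all genes was not counted, so this count is descriptive only.

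Ttr encodes transthyretin, a carrier of thyroid hormone and retinol and a main secreted product of the choroid plexus. The gene (ENSMUSG00000061808) spans chromosome 18 from 20665280 to 20674321 on the plus strand of mm10. It was at 29.7, 56.1 and 9662 FPKM in VPA E15 rep1, rep2 and rep3, against 8.75, 16.1 and 131 FPKM in Control E15 rep1, rep2 and rep3. In VPA rep3 it ranked 2 among all genes of the library and made up 1.96% of the FPKM sum, where it ranked 598 in Control rep3. The 2 groups overlapped, as did those of Enpp2, where 17.5% of all genes tested did not.

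Enpp2 encodes autotaxin, a secreted enzyme that makes lysophosphatidic acid. It lies on the minus strand of chromosome 15 from 54838901 to 54952892, where the gene model Gm26684 overlaps it on the opposite strand. Enpp2 was at 5.74, 5.89 and 1296 FPKM in VPA E15 rep1, rep2 and rep3, against 2.32, 3.15 and 20.9 FPKM in Control E15. It ranked 19 among the genes of VPA rep3, and again the highest VPA library stood alone while the other 2 lay inside the range of Control.

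Folr1 encodes folate receptor alpha, which moves folate across the epithelium into the cerebrospinal fluid. It is on the minus strand of chromosome 7 from 101858331 to 101870788 and overlaps Anapc15 on the plus strand. Its levels were 0.102, 0.717 and 81.8 FPKM in VPA E15, against 0.0461, 0.181 and 0.916 FPKM in Control E15. The excess of VPA rep3 over the next library, 89.3-fold, was larger for Folr1 than for the other 5 genes.

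Kl encodes klotho, a membrane and circulating protein that serves as co-receptor for fibroblast growth factor 23. The gene lies on the plus strand of chromosome 5 from 150952607 to 150993817. Kl was at 0.198, 0.193 and 59.3 FPKM in VPA E15, against 0.0311, 0.114 and 1.04 FPKM in Control E15, so that VPA rep3 was 56.7 times Control rep3.

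Clic6, a chloride intracellular channel family member, and Kcne2, a potassium channel subunit that sits in the apical membrane of this epithelium, both lie on the plus strand of chromosome 16. Kcne2 spans 92292389 to 92298129 and Clic6 spans 92485736 to 92541243, with 187606 bases between them. The gene model 2410124H12Rik overlaps Clic6 on the same strand. Clic6 was at 0.159, 0.388 and 44.96 FPKM in VPA E15, against 0.115, 0.135 and 0.674 FPKM in Control E15. Kcne2 was at 0.125, 0.567 and 35.4 FPKM in VPA E15, against 0.241 and 0.703 FPKM in Control rep2 and rep3, and was listed at 0 in Control rep1.
Of 4 protein-coding genes annotated between the pair on the chromosome, Smim11, Rcan1 and Kcne1 were not higher in VPA rep3 than in all other E15 libraries. Smim11 was at 42.8 FPKM in VPA rep3 and at 31.2 to 43.3 FPKM in the other 5 E15 libraries. Rcan1 was at 23.8 FPKM in VPA rep3 and at 24.6 to 30.6 FPKM in the other 5, and Kcne1 was listed at 0 in VPA rep3 and reached 0.0857 FPKM elsewhere. Fam243, under its older symbol 4930563D23Rik, was at 0.146 FPKM in VPA rep3 and listed at 0 in the other 5.

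**Figure D1:**
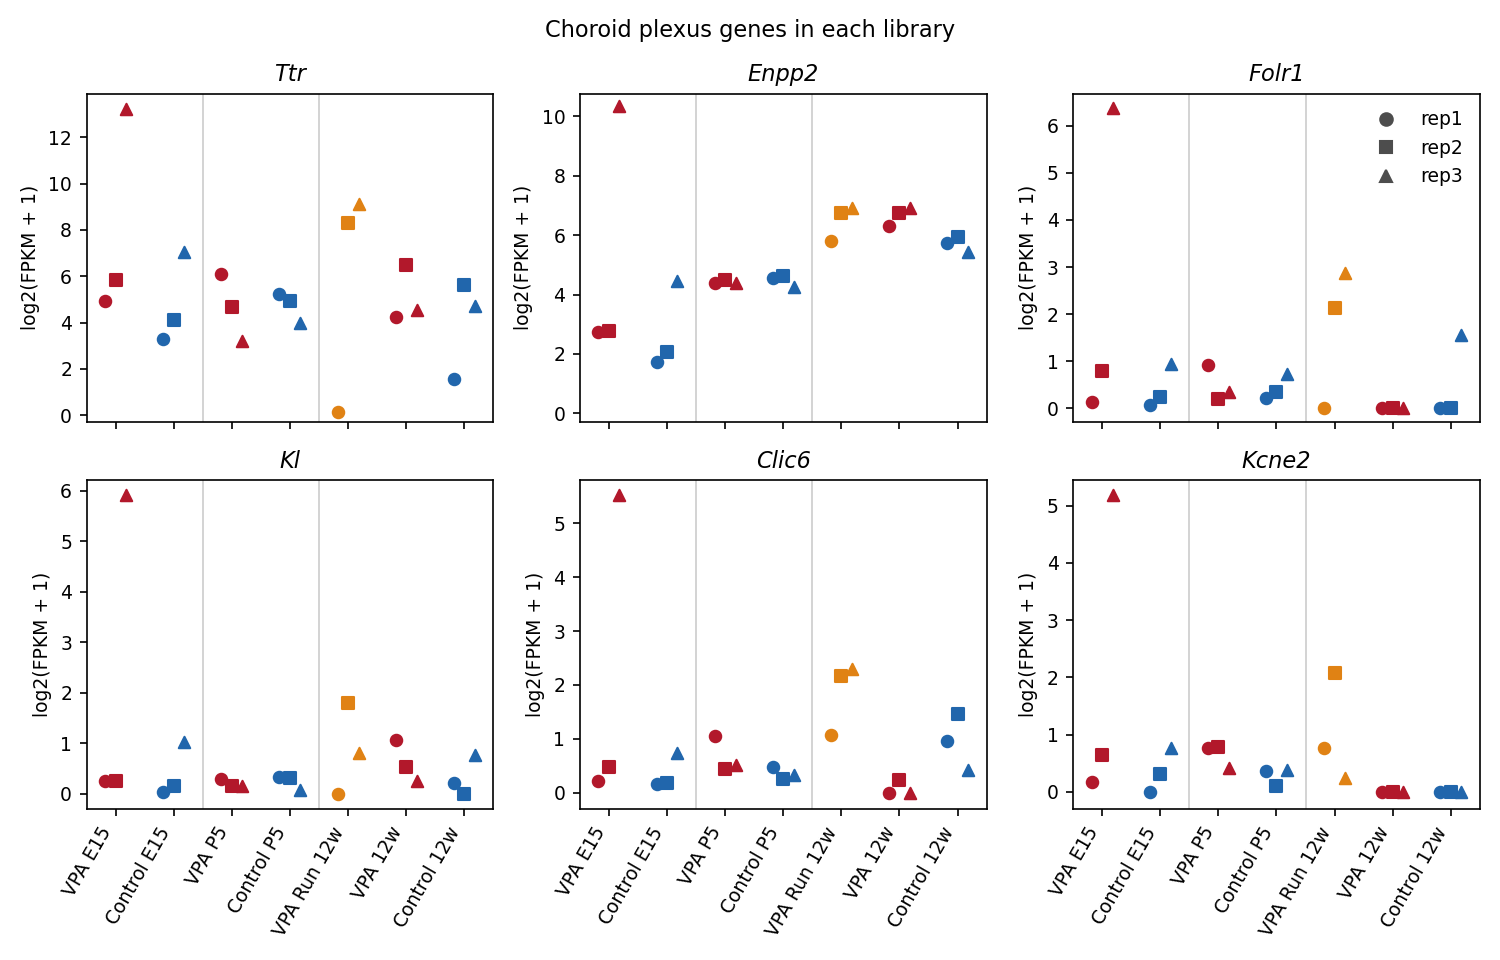
Level of each of the 6 genes in each of the 21 libraries as log2(FPKM + 1), with 1 panel for each gene and replicates marked by symbol. VPA E15 rep3 is the highest point in all 6 panels, and VPA Run rep2 and rep3 lie above the other 12w libraries for Ttr, Folr1 and Clic6.

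The upstream sequences of Kcne2 and Kl are shown because the pair, on different chromosomes, was high in the same library. Both windows run from 250 bases before to 50 bases after an annotated start, from RefSeq on GRCm38.p6, at chr16:92292139-92292438 for Kcne2 and chr5:150952357-150952656 for Kl, both on the plus strand. Capitals mark TAATC or, read on the other strand, GATTA, the core letters bound by OTX-type homeodomain factors, of which OTX2 is needed in mice for the choroid plexus to form.
Kcne2: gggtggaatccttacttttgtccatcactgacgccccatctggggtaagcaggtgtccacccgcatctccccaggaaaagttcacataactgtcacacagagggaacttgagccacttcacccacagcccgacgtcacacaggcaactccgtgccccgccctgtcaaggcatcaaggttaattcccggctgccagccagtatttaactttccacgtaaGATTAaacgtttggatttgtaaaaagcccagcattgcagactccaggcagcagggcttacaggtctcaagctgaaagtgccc
Kl: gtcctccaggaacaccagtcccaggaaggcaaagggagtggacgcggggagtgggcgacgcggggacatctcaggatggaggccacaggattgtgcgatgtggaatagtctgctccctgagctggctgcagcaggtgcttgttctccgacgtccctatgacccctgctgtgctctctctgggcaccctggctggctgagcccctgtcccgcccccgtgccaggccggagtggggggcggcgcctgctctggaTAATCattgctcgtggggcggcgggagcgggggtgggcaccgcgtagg
The core was present on either strand in 22.0% of 32851 promoter windows of this length, so a match is common. The longer TAATCC (7.06% of windows, and containing the core), the forkhead letters GTAAACA (3.65%) and TATAAA (13.6%), each searched on both strands, were not in these windows. A second Kcne2 start, at chr16:92295366-92295665, held none of the 4 motifs. The Kcne2 and Kl windows shown had 53% and 67.3% G and C with 9 and 19 CG dinucleotides, against medians of 52.7% and 7 over all windows. The RefSeq table used here held windows for Kcne2 and Kl among the genes that could be shown, and Enpp2, Folr1 and Clic6 had none in it.

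The 6 genes varied together across the E15 libraries. Pearson correlations of log2(FPKM + 1) over the 15 pairs of genes were 0.962 to 0.9996 (median 0.989) in the 6 E15 libraries, and 0.768 to 0.981 (median 0.921) in the 5 without VPA rep3. These values describe libraries of 1 tissue and age, with 1 library far from the others. In the 5 without VPA rep3, Control rep3 was highest for all 6 genes, with Ttr at 131 FPKM against at most 56.1 FPKM in the rest. Folr1, Kl, Clic6 and Kcne2 were at most 1.04 FPKM in those 5. The 6 genes kept nearly fixed proportions between the 2 highest libraries. Control rep3 held Ttr at 1.36%, Enpp2 at 1.61%, Folr1 at 1.12%, Kl at 1.76%, Clic6 at 1.499% and Kcne2 at 1.99% of the FPKM in VPA rep3. The ratio of Ttr to Enpp2 was 7.45 in VPA rep3 and 3.77 to 9.53 in the other 5 E15 libraries.

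**Figure D2:**
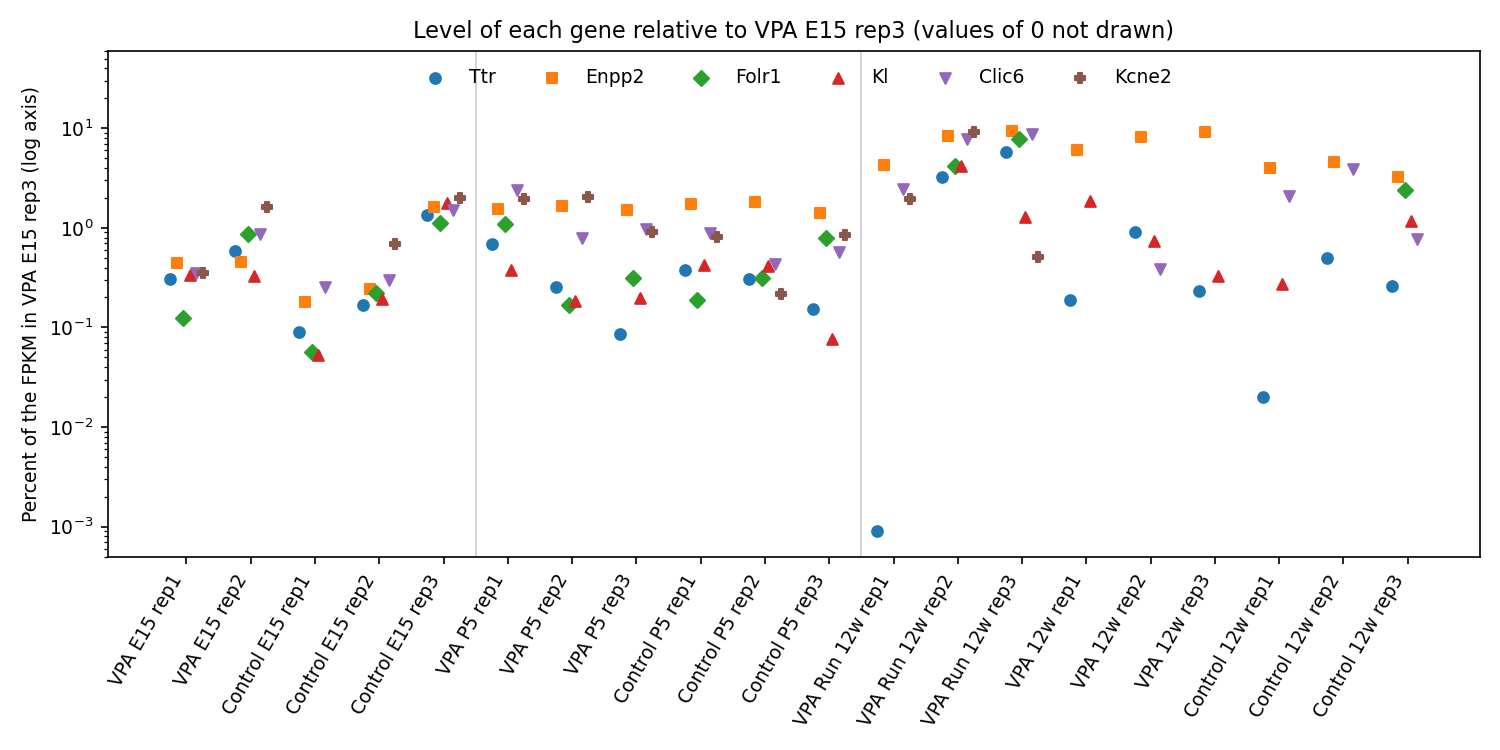
FPKM of each gene in the other 20 libraries as a percent of its level in VPA E15 rep3, on a log axis with libraries ordered by age and values of 0 left out. The 6 symbols of Control E15 rep3 lie between 1.12% and 1.99%, while at P5 and 12w Enpp2 separates from the rest.

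The excess of VPA rep3 reached well beyond the 6 genes into other genes of the epithelium. The list of further genes was chosen with earlier results of these data known, so its counts are descriptive and not an independent test. Of 48 further genes listed for the choroid plexus, all measured, 43 were highest in VPA rep3 among the 6 E15 libraries. This compares with 22.4% of the 13360 genes that reached 1 FPKM at E15. On FPKM + 1, 31 of the 48 were at least 4-fold above every other E15 library, with a median ratio of 5.48 over the 48 genes and 0.893 over all 13360. Among all genes 132 passed the same 4-fold mark in VPA rep3, or 0.988% of those considered. They were the 6 genes, the 31 listed ones, 5 listed for other cell types, 16 numbered gene models or small RNA genes and 74 others. Each of the other 5 E15 libraries had 17 to 37 such genes, none of them a choroid plexus gene of either list.

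Of the 12 channels and transporters 8 passed the 4-fold mark, and among them Kcnj13, the apical inward rectifier potassium channel of this epithelium, was at 68.4 FPKM in VPA rep3 and at most 1.23 FPKM in the other E15 libraries. The sodium pump subunit gene Atp1b1 was at 70.4 FPKM there and at most 20.6 FPKM elsewhere, whereas the monoamine transporter gene Slc29a4 was at 70.0 FPKM there and reached 76.2 FPKM elsewhere. Of 9 epithelial structure genes 5 passed. They included the protease inhibitor gene Spint2 at 62.3 FPKM in VPA rep3 against at most 13.2 FPKM elsewhere, the tight junction gene Cldn2 at 17.1 against at most 0.37 FPKM and the keratin gene Krt18 at 10.7 against at most 0.18 FPKM.
Of 9 enzymes and receptors 7 passed, with the retinol dehydrogenase gene Rdh5 at 30.9 FPKM in VPA rep3 against at most 2.94 FPKM elsewhere. The angiotensin-converting enzyme gene Ace was at 28.2 against at most 0.618 FPKM, and the carbonic anhydrase gene Car12 at 24.4 against at most 1.29 FPKM. Of 12 secreted and other genes 9 passed. Clu, which encodes clusterin, was at 163 FPKM in VPA rep3 against at most 11.8 FPKM elsewhere, while Cst3 (cystatin C) and Igfbp2, high in all E15 libraries, were at 312 and 258 FPKM in VPA rep3 against at most 193 and 156 FPKM. Transcription factors stood out least, with 2 of 6 passing. Otx2 was at 20.7 FPKM in VPA rep3 and at most 3.25 FPKM elsewhere and Msx1 at 12.7 FPKM and at most 0.733 FPKM, while the ciliary factor gene Rfx3 was at 8.91 FPKM there and reached 9.78 FPKM elsewhere.

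The 15 genes with the largest excess in VPA rep3 at E15 included all 6 genes described here. Ttr, Enpp2 and Folr1 had the 3 largest. Kcnj13, Calml4 and Ace were the only others of the 15 from the lists, and the remaining 6 were Fxyd1, Ptgds, Pcp4l1, C1qtnf5, Cox8b and Ifi27. Fxyd1, which encodes phospholemman, a regulator of the sodium pump, was at 96.7 FPKM in VPA rep3 and at most 1.38 FPKM elsewhere at E15.

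Some genes listed for neighbouring cell types were higher in VPA rep3 and others were not. Whether the higher ones came from neighbouring cells or from the epithelium itself was not tested. The summed level of 11 ependymal genes was 39.4 FPKM in VPA rep3 and 3.81 to 7.28 FPKM in the other 5 E15 libraries, with 6 of the 11 highest in VPA rep3 and 3 past the 4-fold mark. The cilia genes Dynlrb2, Rsph1 and Cfap126 were at 7.89, 6.59 and 7.49 FPKM in VPA rep3 against at most 1.18, 0.385 and 0.551 FPKM elsewhere, and Mia was at 13.8 against at most 5.15 FPKM. The ependymal markers Ccdc153 and Tmem212 were listed at 0 in all 6 E15 libraries. Enkur was at 0.413 FPKM in VPA rep3 and reached 1.06 FPKM elsewhere. Meig1 and 1700012B09Rik were listed at 0 in VPA rep3 and reached 0.359 and 0.109 FPKM elsewhere. The sum of 8 fibroblast and stroma genes was 103 FPKM in VPA rep3 and 4.22 to 9.06 FPKM in the other 5, with 6 of the 8 highest in VPA rep3 and 2 past the 4-fold mark, Igf2 at 76.8 against at most 6.22 FPKM and Pcolce at 19.9 against at most 0.757 FPKM. The matrix genes Dcn, Lum, Col1a2 and Col1a1 were at 3.46, 1.43, 1.14 and 0.241 FPKM in VPA rep3. Elsewhere they were at most 1.38, 0.290, 0.295 and 0.0889 FPKM. Col3a1 and Foxc1 were at 0.230 and 0.0544 FPKM in VPA rep3 and reached 0.402 and 0.211 FPKM elsewhere. Sums of 8 endothelial and 9 microglial and macrophage genes were 6.26 and 6.45 FPKM in VPA rep3 and at most 2.84 and 1.74 FPKM in the other 5. Of these, 5 of the 8 and 6 of the 9 were highest in VPA rep3, and 0 in either list passed the 4-fold mark. Median ratios to the highest other library, on FPKM + 1, were 1.02 and 1.25. The largest endothelial values in VPA rep3 were those of Ly6c1 and Slco1a4, at 2.63 and 2.36 FPKM, so these sums rest on few genes at low levels. The sum of 8 pericyte genes was 11.5 FPKM in VPA rep3 and 12.4 to 17.9 FPKM in the other 5, and 8 mature neuron genes summed to 245.5 FPKM in VPA rep3 and 231 to 271 FPKM in the other 5. The labelled cell type was present in VPA rep3, where 9 neural stem and progenitor genes summed to 484 FPKM against 500 to 646 FPKM in the other 5. Among these Fabp7 was at 233 FPKM and Sox2 at 37.5 FPKM in VPA rep3, against 203 to 294 and 24.5 to 48.6 FPKM elsewhere at E15. Vim and Hes5 were lowest in VPA rep3, at 124 and 5.58 FPKM against at least 164 and 6.53 FPKM elsewhere. Hopx was highest there, at 9.12 FPKM against at most 7.14 FPKM.

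**Figure D3:**
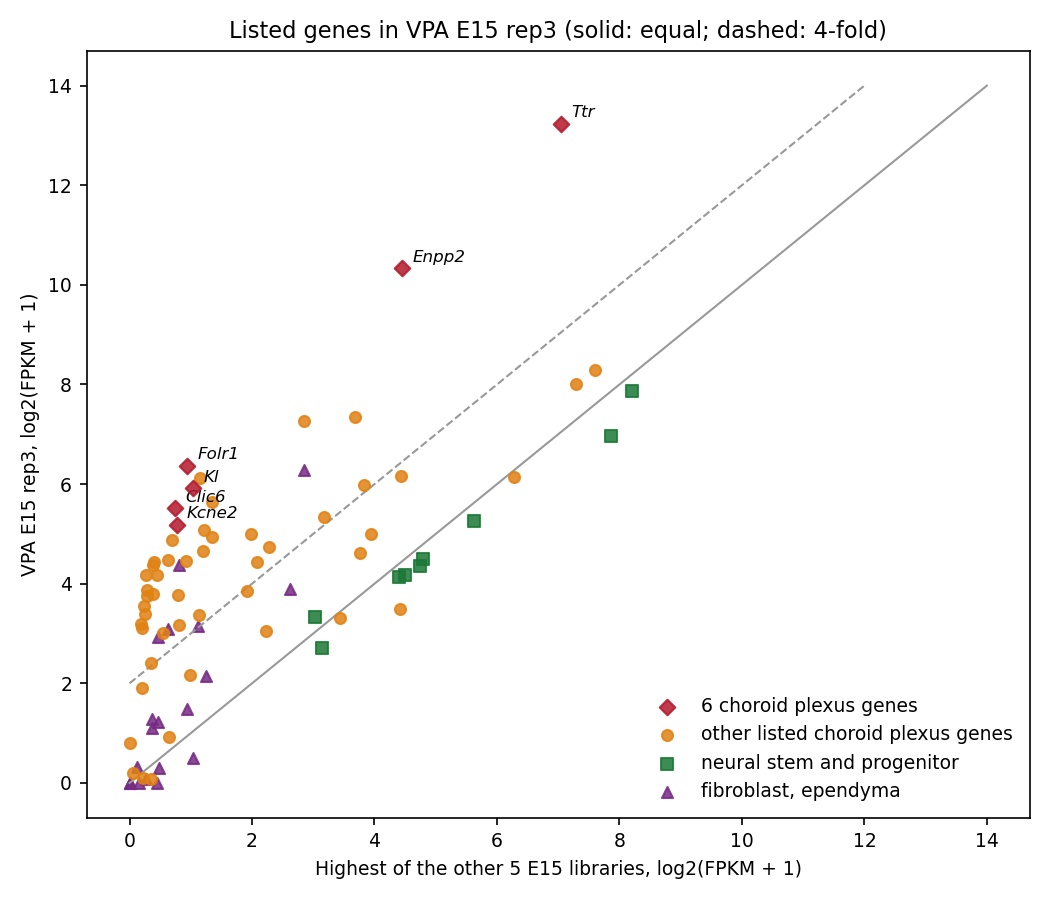
Level of each listed gene in VPA E15 rep3 (vertical) against its highest level in the other 5 E15 libraries (horizontal), both as log2(FPKM + 1), with lines for equal and 4-fold higher values. The 6 choroid plexus genes and 31 of the other 48 lie above the dashed line, and 8 of the 9 neural stem and progenitor genes lie below the solid line.

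The comparison of VPA with Control at E15 asks how prenatal VPA changed forebrain progenitors, and none of the 6 genes was called in it. Only Ttr and Enpp2 passed the filter of at least 1 FPKM in 3 libraries, since Folr1, Kl, Clic6 and Kcne2 reached that level in 1 or 2 of the 6. On log2(FPKM + 1), Ttr was 3.19 higher (SE 2.18) in VPA (3249 ± 5554 FPKM) than in Control (52.1 ± 68.8 FPKM, SD, n = 3 each), with adjusted p = 0.622 in limma. Enpp2 was 2.55 higher (SE 2.03, limma adjusted p = 0.668). The background was 0.0405% of 12345 genes called, and 0 of the 2 had an unadjusted p under 0.05. The size of both differences depended on VPA rep3 and on which Control libraries it was set against. Without VPA rep3, and with Control rep3 kept, the difference of Ttr was 0.58 (SE 1.05, limma adjusted p = 0.865) and that of Enpp2 was 0.02 (SE 0.77, limma adjusted p = 0.994). Without Control rep3 the differences were 4.31 and 3.40.
Set against the Control library of the same number, VPA was higher in each of the 3 pairs for all 6 genes, as held for 16.2% of the 13360 genes that reached 1 FPKM at E15, and for 19 of the 48 further listed genes. For Ttr the differences on log2(FPKM + 1) were 1.65, 1.74 and 6.19 in pairs 1, 2 and 3, and for Enpp2 they were 1.02, 0.73 and 5.89. For Folr1, Kl, Clic6 and Kcne2 they were 4.42 to 5.43 in pair 3 and 0.06 to 0.54 in pairs 1 and 2, where these genes were below 1 FPKM. With the pair number in the fit and pair 3 left out, a choice made after seeing the data, Ttr was 1.70 higher in VPA (SE 0.11, limma adjusted p = 0.000221) and was called, and Enpp2 was 0.88 higher (SE 0.17, limma adjusted p = 0.0940), with 15 of 12121 genes called from 2 pairs. With pair 1 or pair 2 left out instead, Ttr was 3.96 and 3.92 higher (limma adjusted p = 0.409 and 0.861). The pairing rests on weak correlations between same-numbered libraries and not on the labels. Differently numbered libraries were not compared, so the pairing is not established. The call of Ttr, from 2 pairs chosen after seeing the data, is therefore not an independent test.
The further listed genes behaved likewise. Of 19 tested, 17 were higher in VPA, with a median log2 difference of 0.68, and 7 were higher, with a median of -0.08, once VPA rep3 was left out. Over all genes tested the medians were -0.01 with and without it. Among all genes tested, 75 were at least 1 higher on the log2 scale in VPA, of which 43 were still so without VPA rep3, and the listed genes gave 5 and 0.

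**Figure D4:**
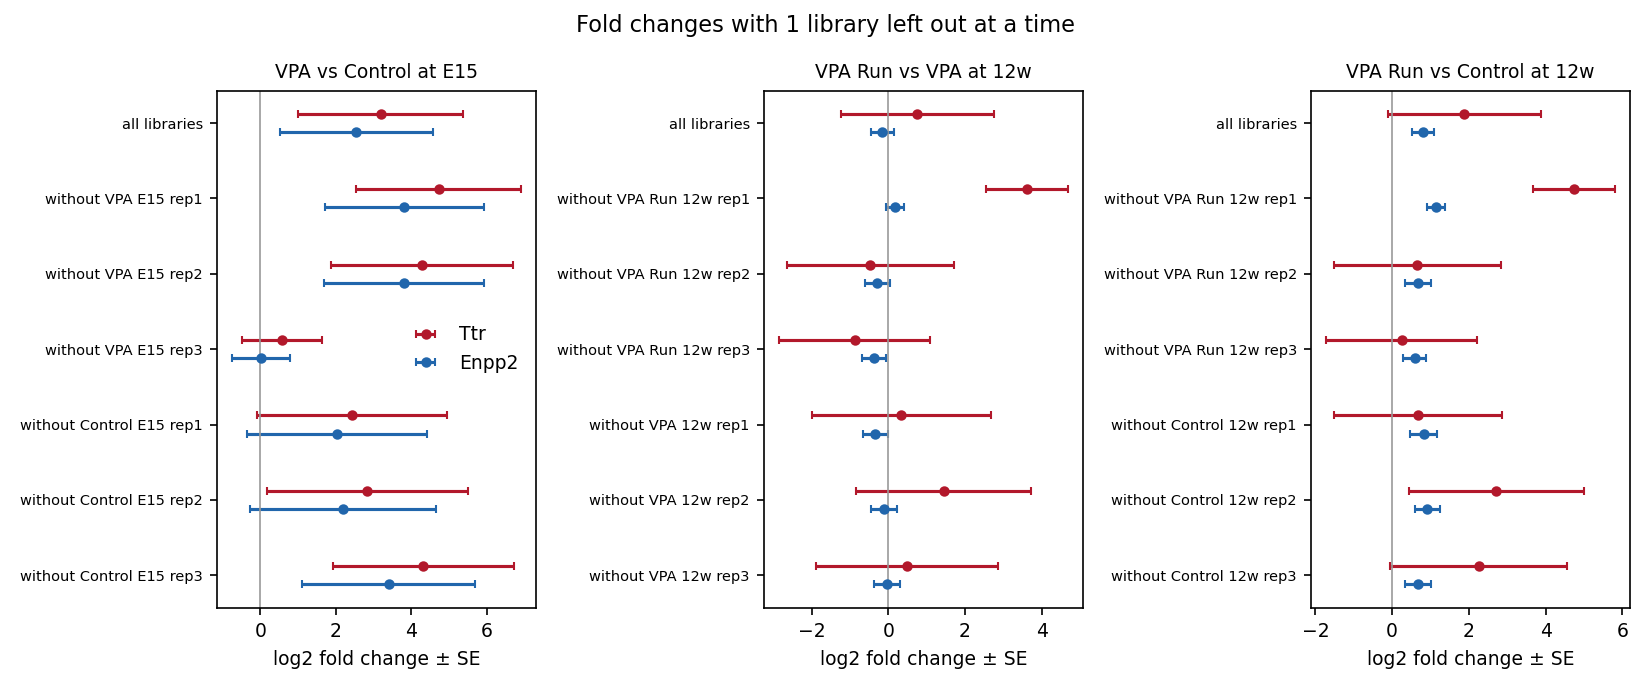
Differences of Ttr and Enpp2 on log2(FPKM + 1) with their standard errors, with all libraries and with 1 library left out at a time, for VPA against Control at E15 and for VPA Run against VPA and Control at 12w. At E15 both genes drop to 0.58 and 0.02 without VPA rep3, and at 12w Ttr moves to 3.62 and 4.75 without VPA Run rep1.

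At P5 no library stood apart for the 6 genes. Ttr was at 66.8, 24.8 and 8.26 FPKM in VPA P5 rep1, rep2 and rep3, against 36.3, 29.8 and 14.97 FPKM in Control P5. Enpp2 was nearly level at 19.9, 21.7 and 19.7 FPKM in VPA P5, against 22.6, 23.5 and 18.1 FPKM in Control P5. Both genes overlapped between the groups, where 29.4% of the genes tested did not. Folr1, Kl and Kcne2 were below 1 FPKM in all 6 libraries, and Clic6 reached 1.07 FPKM in VPA rep1, the library with the most Ttr and Folr1 at this age. Only Ttr and Enpp2 passed the filter. Ttr differed by -0.06 (SE 0.68, limma adjusted p = 0.966) and Enpp2 by -0.06 (SE 0.10, limma adjusted p = 0.774), with 2.24% of 13328 genes called and neither gene under an unadjusted p of 0.05. Of the 15 genes with the largest excess in VPA rep1 over the other P5 libraries, Ttr, 0.86 above the next library on log2(FPKM + 1), was the only choroid plexus gene of either list, and the largest was Ptgds at 1.55. Among 24 further listed genes tested at P5, 1 was called. Rdh5 fell by 0.90 on the log2 scale (SE 0.13, limma adjusted p = 0.0286).
The 6 genes did not vary together at P5, where the 15 pairwise correlations over 6 libraries were -0.675 to 0.740 (median 0.319). The ratio of Ttr to Enpp2 was 0.419 to 3.36, below its E15 range in every P5 library. Enpp2 is also expressed by maturing oligodendrocytes in mice, and 9 myelinating oligodendrocyte genes summed to 93.5 to 144 FPKM in VPA P5 and 105 to 159 FPKM in Control P5, against 16.8 to 22.1 FPKM over the 6 E15 libraries. The part of that cell type in the level of Enpp2 was not tested.

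**Figure D5:**
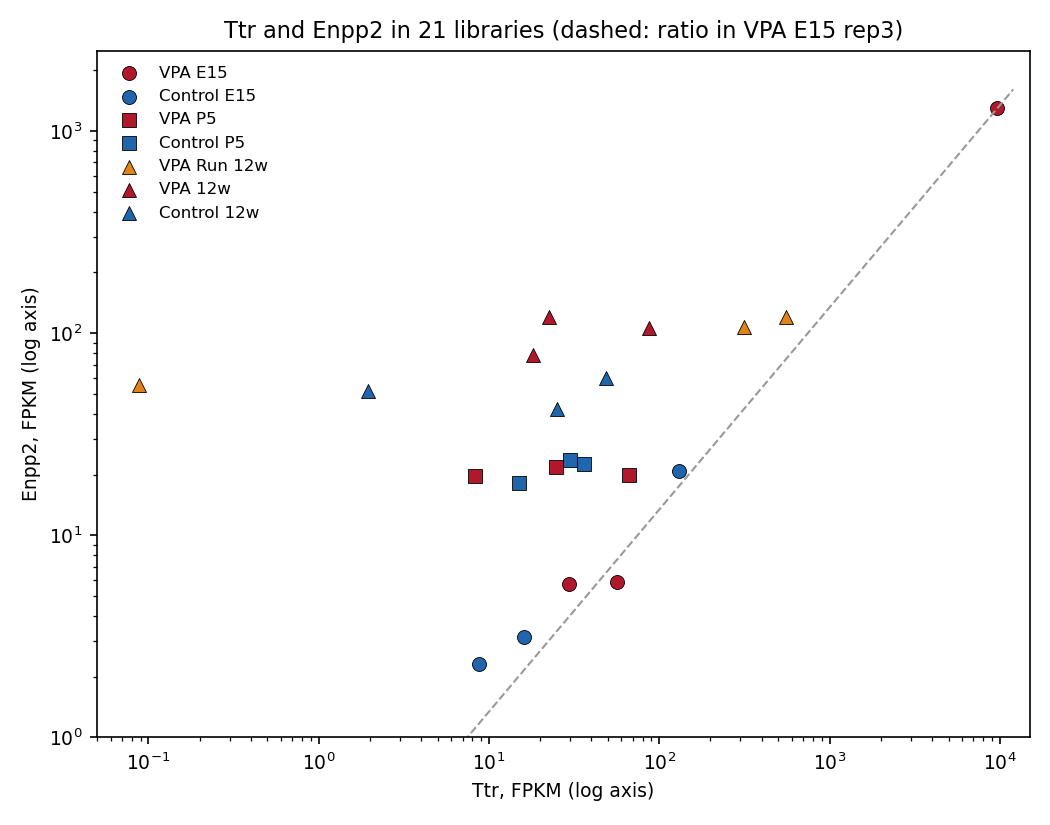
Enpp2 against Ttr in each of the 21 libraries, both in FPKM on log axes, with a dashed line at the Ttr to Enpp2 ratio of VPA E15 rep3, 7.45. The E15 libraries lie near the line, and all P5 and 12w libraries lie above it.

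At 12w 2 of the 3 running libraries held the most Ttr. Ttr was at 0.0880, 316 and 558 FPKM in VPA Run rep1, rep2 and rep3, at 18.05, 87.4 and 22.6 FPKM in VPA and at 1.96, 48.6 and 25.1 FPKM in Control. VPA Run thus held both the highest and the lowest Ttr of the 9 adult libraries, with ranks of 14124, 133 and 58 among the genes of its 3 libraries. Folr1 was listed at 0 in VPA Run rep1 and was at 3.38 and 6.38 FPKM in rep2 and rep3, was listed at 0 in all 3 VPA libraries, and was at 1.94 FPKM in Control rep3 and listed at 0 in the other 2. Clic6 was at 1.10, 3.49 and 3.90 FPKM in VPA Run, listed at 0 in VPA rep1 and rep3 and at 0.172 FPKM in VPA rep2, and at 0.950, 1.75 and 0.345 FPKM in Control. VPA Run rep2 and rep3 were singled out as the 2 libraries with the most Ttr, so Ttr meets the mark that follows by that choice. For 3 of the 6 genes, Ttr, Folr1 and Clic6, both VPA Run rep2 and rep3 lay above the other 7 adult libraries. The same held for 5.09% of the 15620 genes that reached 1 FPKM at 12w, a share given for scale and not as a test.
Kl and Kcne2 did not follow that pattern. Kl was listed at 0 in VPA Run rep1 and was at 2.47 and 0.754 FPKM in rep2 and rep3, against 1.10, 0.434 and 0.196 FPKM in VPA, and at 0.161 and 0.692 FPKM in Control rep1 and rep3 with Control rep2 listed at 0. Kcne2 was at 0.691, 3.23 and 0.182 FPKM in VPA Run and was listed at 0 in all 6 other adult libraries. Enpp2 was at 55.4, 108 and 121 FPKM in VPA Run, at 78.3, 107 and 120 FPKM in VPA and at 52.1, 59.998 and 42.2 FPKM in Control. All 3 VPA libraries were above all 3 Control libraries for Enpp2.

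Relative to VPA E15 rep3, the 2 high running libraries did not keep the proportions seen at E15. VPA Run rep2 held Ttr at 3.27%, Folr1 at 4.13%, Kl at 4.17%, Clic6 at 7.76%, Enpp2 at 8.30% and Kcne2 at 9.12% of that library. VPA Run rep3 held Kcne2 at 0.514%, Kl at 1.27%, Ttr at 5.78%, Folr1 at 7.80%, Clic6 at 8.68% and Enpp2 at 9.33%. The percentages in VPA Run rep3 thus spread over a wider range than the 1.12% to 1.99% of Control E15 rep3. These 2 running libraries also had the fewest genes above 0, and low values in them are imprecise. The part of that in the proportions was not tested. Over the 31 further listed genes that passed the 4-fold mark at E15, the median percentage was 1.94%, 4.82% and 4.25% in VPA Run rep1, rep2 and rep3, against 0% to 3.59% in the 6 other adult libraries. It was 2.22% to 3.65% in the P5 libraries and 1.25% to 3.15% in the other 5 E15 libraries, so the 2 high running libraries lay only slightly above the highest of these. Of the 48 further listed genes 38 reached 1 FPKM at 12w. In both VPA Run rep2 and rep3, 3 of these were above the other 7 adult libraries, namely the bicarbonate transporter gene Slc4a5, Prlr and Htr2c. The share over all genes that reached 1 FPKM at 12w was 5.09%. Slc4a5 and Htr2c were at only 0.0730 and 0.190 FPKM in VPA Run rep2, near the floor. Of the 15 genes with the largest excess in VPA Run rep3 over the other adult libraries none was among the 6 and 1, Steap1, was a listed gene, at 13.2 FPKM against at most 0.219 FPKM in the other 8. Htr2c and Slc4a5 were listed at 0 in the other 7 libraries, and 4 to 18 of the 31 genes were listed at 0 in each adult library.

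The 3 comparisons at 12w ask about VPA without running, running after VPA, and both against Control. They share libraries, since VPA enters both of the comparisons named first and Control enters those named first and last. Ttr, Enpp2, Folr1 and Clic6 passed the filter among 13847 genes. Folr1 passed only through VPA Run rep2 and rep3 and Control rep3, and Clic6 only through the VPA Run libraries and Control rep2. For both genes, p-values in comparisons with VPA Run are thus not independent of the high values there. None of the 4 was called in any of the 3 comparisons, in each of which limma called 0 genes in all (0%), with 885, 1566 and 1074 genes at an unadjusted p under 0.05 in the order just given.
In VPA against Control, Enpp2 was 0.96 higher on the log2 scale (SE 0.29) in VPA (102 ± 21.3 FPKM) than in Control (51.4 ± 8.93 FPKM, SD, n = 3 each), with an unadjusted p of 0.00806 and an adjusted p of 0.567 in limma. Its groups did not overlap, as held for 15.5% of the genes tested, and neither did those of Clic6, which was 0.87 lower in VPA (SE 0.54, limma adjusted p = 0.828). The adjusted p of Enpp2 ranged from 0.0977 to 0.9997 over the settings and left-out libraries tried. Ttr was 1.12 higher in VPA (SE 1.998, limma adjusted p = 0.966). Myelinating oligodendrocyte genes summed to 258 to 371 FPKM in VPA and 362 to 535 FPKM in Control, and the part of that cell type in the difference of Enpp2 was not tested.
In VPA Run against VPA, Clic6 was 1.77 higher (SE 0.54) with an unadjusted p of 0.00777 and an adjusted p of 0.271 in limma. Its groups did not overlap, again as for 15.5% of genes. Clic6 was tested because it was high in VPA Run, so neither result is an independent test. Ttr was 0.76 higher (SE 1.998, limma adjusted p = 0.915) and Enpp2 differed by -0.16 (SE 0.29, limma adjusted p = 0.871). For Folr1, listed at 0 in all VPA libraries, the limma adjusted p was 0.449. In VPA Run against Control, Enpp2 was 0.81 higher (SE 0.29, unadjusted p 0.0204, limma adjusted p = 0.615), Ttr 1.88 higher (SE 1.998, limma adjusted p = 0.805), Folr1 1.15 higher (SE 0.77, limma adjusted p = 0.697) and Clic6 0.89 higher (SE 0.54, limma adjusted p = 0.661). None of these 4 was free of overlap, which 13.1% of genes were.
The value of Ttr turned on VPA Run rep1. Without that library Ttr was 3.62 higher in VPA Run than in VPA (SE 1.07, limma adjusted p = 0.180) and 4.75 higher in VPA Run than in Control (SE 1.07, limma adjusted p = 0.192). Without VPA Run rep3 it was -0.88 against VPA. Of 28 further listed genes tested, 0 were called in any of the 3 comparisons.

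Across ages, Control libraries were compared for P5 against E15 and for 12w against P5. In these fits of all 21 libraries 5 of the 6 genes passed the filter, since Kcne2 reached 1 FPKM in 2 libraries, and Folr1, Kl and Clic6 passed through the few libraries in which they were high. None was called or had an unadjusted p under 0.05, where 20.7% and 12.6% of 14662 genes were called. Enpp2 was 1.73 higher at P5 than at E15 (SE 1.31, limma adjusted p = 0.429) and 1.22 higher at 12w than at P5 (SE 1.31, limma adjusted p = 0.624). None of the 5 was free of overlap between Control P5 and Control E15, where 66.5% of genes were. Enpp2 of Control did not overlap between 12w and P5, as for 37.5% of genes. The median difference over all genes was 0.14 for P5 against E15.
The size of these standard errors came with VPA E15 rep3, which is in neither comparison. With that library out of the fit, a choice made after seeing the data, the standard error of Enpp2 was 0.49 and its limma adjusted p was 0.0170 for P5 against E15 and 0.123 for 12w against P5. With only the compared groups in the fit, the limma adjusted p was 0.0523 for P5 against E15 and 0.00560 for 12w against P5, and the standard error of that last difference was 0.17. Ttr differed by -0.09 at P5 against E15 (SE 2.13, limma adjusted p = 0.992) and by -0.75 at 12w against P5 (SE 2.13, limma adjusted p = 0.875). Of 35 further listed genes tested, 7 rose at P5 against E15, namely Atp1b1, Bmp7, Clu, Cst3, Epcam, Rfx3 and Slc12a2, and 0 fell. At 12w against P5, Cst3 and Perp rose and Igfbp2 and Slc29a4 fell. Both counts were near the shares of all genes called in the same comparisons, 20.7% and 12.6%, so they do not set the listed genes apart. Clu and Cst3 are also strongly expressed by astrocytes.
The effect of VPA was also compared between ages. The VPA effect at P5 minus that at E15 was -3.25 for Ttr (SE 3.01), -2.60 for Enpp2 (SE 1.85), -1.96 for Folr1 (SE 1.56), -1.77 for Kl (SE 1.40) and -1.39 for Clic6 (SE 1.27), each with a limma adjusted p of 1, where 0.0955% of genes were called. Without VPA E15 rep3 these differences shrank to -0.64 for Ttr and -0.08 for Enpp2, and were 0.01 for Folr1, 0.12 for Kl and 0.33 for Clic6. For 12w minus P5 none of the 5 was called, where 0.389% of genes were, and the values were 1.18 for Ttr and 1.02 for Enpp2 (SE 3.01 and 1.85, limma adjusted p = 0.947 and 0.910).

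Ordered by the median of the group, Ttr was highest in VPA Run 12w (316 FPKM), then in VPA E15 (56.1), Control P5 (29.8), Control 12w (25.1), VPA P5 (24.8), VPA 12w (22.6) and Control E15 (16.1 FPKM). Every neighbouring pair in that order overlapped. Enpp2 was highest in VPA Run 12w (108 FPKM), then in VPA 12w (107), Control 12w (52.1), Control P5 (22.6), VPA P5 (19.9), VPA E15 (5.89) and Control E15 (3.15 FPKM). VPA 12w and Control 12w did not overlap, nor did Control 12w and Control P5, and the other neighbouring pairs did. The medians of Folr1 and Clic6 were 3.38 and 3.49 FPKM in VPA Run 12w, and all other group medians of Folr1, Kl, Clic6 and Kcne2 were below 1 FPKM.

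Over all 21 libraries the 15 pairwise correlations among the 6 genes were 0.548 to 0.927 (median 0.788), and 0.0755 to 0.706 (median 0.453) in the 20 without VPA E15 rep3. In the 9 adult libraries they were 0.170 to 0.705 (median 0.467). The genes whose profile over 21 libraries was most like the mean of the 6 were Prlr (Pearson r = 0.933), Col8a2 (0.919), Slc4a5 (0.912), Htr2c (0.912), F5 (0.905), Tmem72 (0.872) and Cox8b (0.870), followed by 3 small RNA genes that were listed above 0 in VPA E15 rep3 alone. In the 6 E15 libraries the closest were Emc9, B3galt5, Fxyd1, Sostdc1 and Emb, at 0.996 to 0.998. At P5 they were Rrp8, Rhoj, Zcchc3, Gm14325 and Fam132a, and at 12w Tspyl1, Rab6a, Il4i1, Smim8 and Cct2, none of which is on the choroid plexus lists. Without VPA E15 rep3, a set of libraries chosen after seeing the data, the closest over 20 libraries were Hspe1 (0.834), Fancf (0.825) and Atg12 (0.822), also not on the lists.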

How the data were processed

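mRNA of sorted GFP-positive cells was sequenced on an Illumina HiSeq instrument, per the labels. The deposited tables hold 1 FPKM value per gene symbol for each of 21 libraries, per the file headers at 12w; the E15 and P5 headers name only the sample, and FPKM was inferred there from the matching sums and from the tools. The submitters' processing notes name TopHat, Bowtie2, Cufflinks, Cuffdiff and mm10, with no versions. No counts were used, so read depth per gene is unknown and low values are imprecise. Values were taken as log2(FPKM + 1), which understates changes of low genes, and filtered at 1 FPKM or more in at least 3 libraries of the fit. limma 3.58.1 in R 4.3.3 (lmFit, then eBayes with a trend) was fitted on all such genes, within each age for VPA, VPA Run and Control and on all 21 libraries between ages, with Benjamini-Hochberg adjustment over all genes tested and a threshold of 0.05. The fits were tested on simulated data with independent normal spread, and with changes added only to genes well above 0. That check held no single extreme library, so it does not cover VPA E15 rep3 or genes near 0.

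Members and marker lists were chosen with earlier results of these data known. Beside the 6 genes, named genes were the 3 highest of each choroid plexus list in the library with most of the 6, the 15 with the largest log2 excess in the leading library of each age over the highest other (numbered models and small RNA genes left out), the 10 (21 libraries) or 5 (1 age) most correlated with the mean of the 6 among genes that reached 5 FPKM, and listed genes past the threshold. Single genes named from other cell type lists, and genes between Kcne2 and Clic6, were chosen after their values were seen. Positions are from GENCODE vM21 on mm10. Same-numbered VPA and Control libraries at E15 correlated weakly in their deviations from the group means (0.126, 0.115 and 0.228). The numbers were therefore treated as possible pairs there, from the data and not the labels. At P5 and 12w the values were -0.0822 to 0.0943, so the lowest E15 value lay close to the highest of these. Differently numbered libraries were not compared, so these values do not establish pairing. The largest, 0.228, belongs to the 2 libraries highest for the 6 genes. Alternatives covered the pseudocount, filter, scaling, array weights, trend, replicate block, the libraries in the fit and each replicate left out.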

Additional observations from a re-analysis of the deposited data

How the results depend on the processing

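In all 9 comparisons 0 of the 6 genes were called, and each replicate left out in turn gave 0 to 0. Of the other settings run, only the fit of the compared groups alone (1 called, Enpp2, Control 12w against P5) changed this, beside 1 called (Enpp2, Control P5 against E15) without VPA E15 rep3 and 1 called (Ttr, VPA against Control at E15, 1.70) with the replicate block and pair 3 left out, both added after seeing the data. The replicate block changed no call of the 6 genes (0 called). At E15, where pairing by number was inferred from weak correlations and not from the labels, it left Ttr at 3.19 (SE 0.93, limma adjusted p = 0.502). Of the single-gene differences, 313 kept their direction and side of the threshold, 13 changed sign and 1 passed it across settings, and 264, 25 and 2 across left-out libraries or pairs. Array weights turned the E15 difference to -0.30 (Ttr) and -0.41 (Enpp2), the VPA effect at P5 minus E15 to 0.31 (Enpp2) and 0.0253 (Clic6), VPA Run against VPA to -1.79 (Ttr) and Control P5 against E15 to -0.41 (Folr1). A pseudocount of 0.1 gave -0.0404 (Ttr, VPA Run against VPA), 0.14 (Clic6, Control P5 against E15) and -0.58 (Folr1, Control 12w against P5). Scaling gave, for Control P5 against E15, -0.0238 (Folr1, median of ratios), -0.42 (Folr1, quantile) and 0.0160 (Clic6, TPM), and for Control 12w against P5 -0.0011 (Folr1, TPM). With 1 library left out, differences that changed sign ranged, for VPA against Control, over -0.77 to 0.66 (Ttr, P5), -0.17 to 0.0132 (Enpp2, P5) and -0.0774 to 1.96 (Ttr, 12w). For VPA Run against VPA they ranged over -0.88 to 3.62 (Ttr) and -0.37 to 0.19 (Enpp2). For Control P5 against E15 they ranged over -0.85 to 1.03 (Ttr), -0.17 to 0.27 (Folr1), -0.36 to 0.14 (Kl) and -0.11 to 0.19 (Clic6). For Control 12w against P5 they ranged over -1.59 to 0.45 (Ttr), -0.42 to 0.36 (Folr1) and -0.13 to 0.25 (Kl). For the VPA effect they ranged over -3.10 to 0.0136 (Folr1), -2.71 to 0.12 (Kl) and -2.32 to 0.33 (Clic6) at P5 minus E15, and -0.0173 to 2.02 (Ttr) at 12w minus P5. The cause of these changes was not tested. Over all genes, VPA against Control called 5 at E15 (3 to 347 over settings, the highest with array weights, and 0 to 11 with 1 library left out) and 298 at P5 (15 to 1213, and 18 to 543). The replicate block gave 4 at E15 and 70 at P5. With 3 libraries a group, most of the 6 genes near 0 at P5 and 12w and depth unknown, small differences of Folr1, Kl, Clic6 and Kcne2 were not detectable.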
